A study of Mus musculus with 15 samples.

Results

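The peaks described here are those nearest to 46 genes for transcription factors that pattern the limbs, face, heart, somites and urogenital organs. A consensus peak was a member where its centre lay inside, or within 100 kb of, the interval of 1 of these genes and that gene was the nearest protein-coding gene in the RefSeq annotation of GRCm38.p6 (mm10). The rule gave 699 of the 206367 peaks, and all 699 passed the filter on low counts. The genes were grouped by their main known role into 14 of the limb, 10 of the face and skull, 9 of the heart and lateral plate, 8 of the somites and paraxial mesoderm, and 5 of the kidney, gonad and mesothelium. The nearest gene need not be the gene that a peak regulates.

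The data were Omni-ATAC-seq counts, a measure of how often a transposase inserts into open chromatin, from mouse embryonic fibroblasts (MEFs, connective tissue cells cultured from embryos) labelled as C57/B16 background. The 15 libraries formed 5 groups of 3. In the 4 guide groups, the cells carried a CRISPR activation construct (CRISPRa-VPR, marked with mCherry) and received, by lentivirus, guides against Fosl2, which encodes Fra2 (a subunit of AP-1), or scrambled guides, and mCherry+/THY1+ cells were sorted at an early or a late time. The fifth group was MEFs kept for 3 days in 4 µM GSK343, which blocks the histone methyltransferase Ezh2, and then given a washout day. Most sample labels give days 3 and 10 for the early and late times and other label text gives days 4 and 11, while early control 3 and the inhibitor libraries carry day 4. For the inhibitor group, transduction and sorting are not mentioned in the labels, so an effect of treatment and one of that handling cannot be told apart. The replicates are not stated to be independent cultures. All 15 libraries were fitted together, so a p-value here reflects the variation among the 3 libraries of a group, pooled over the 5 groups. That variation may be technical. RNA and Fra2 protein were not analysed here, and in these bulk samples fewer cells with an open site and less opening per cell cannot be told apart.

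T-box, homeobox, GATA, forkhead and paired-box factors of this kind specify where a mesenchymal cell lies in the embryo, and fibroblasts keep part of that positional programme in culture. Their genes lie in CpG-rich regions with long flanking stretches that hold tissue-specific enhancers, and they are textbook targets of Polycomb repressive complex 2, in which Ezh2 places methyl groups on a lysine of histone H3. Fra2 pairs with Jun proteins as the AP-1 factor, which binds the motif TGANTCA, mostly at enhancers away from promoters.

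RefSeq promoter windows (250 bases before to 50 bases after a listed start, GRCm38.p6) were matched to 25 of the 46 genes, with 27 windows, and 21 genes had no entry that was used. Their median CpG count was 22 per window of 300 bases, against 13 over 21262 windows of protein-coding genes, and their median GC content was 61% against 56.3%. A peak overlapped 23 of the 27 windows. The 3 windows that overlap a peak called in a comparison of a treatment with its control are shown first, with every CG dinucleotide in capitals. They are Meox2 at chr12:37108290-37108589 (plus strand), Gata3 at chr2:9878551-9878850 (minus strand) and the second listed start of Gata2 at chr6:88198414-88198713 (plus strand). The window of Tbx4 at chr11:85896515-85896814 (plus strand) is marked in the same way and overlaps 0 peaks; it is shown because a peak near this gene had the largest early rise.
Meox2: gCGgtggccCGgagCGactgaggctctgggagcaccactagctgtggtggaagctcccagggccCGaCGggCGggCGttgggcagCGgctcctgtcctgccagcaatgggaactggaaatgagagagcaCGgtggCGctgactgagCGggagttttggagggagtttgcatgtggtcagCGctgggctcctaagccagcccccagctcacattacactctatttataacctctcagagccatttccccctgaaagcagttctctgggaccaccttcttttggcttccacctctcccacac
Gata3: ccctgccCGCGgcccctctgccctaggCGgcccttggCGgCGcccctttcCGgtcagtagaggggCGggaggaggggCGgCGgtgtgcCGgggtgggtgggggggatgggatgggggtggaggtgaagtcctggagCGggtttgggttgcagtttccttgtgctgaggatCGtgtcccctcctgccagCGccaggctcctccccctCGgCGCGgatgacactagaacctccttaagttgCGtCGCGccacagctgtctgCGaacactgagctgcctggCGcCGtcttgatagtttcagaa
Gata2: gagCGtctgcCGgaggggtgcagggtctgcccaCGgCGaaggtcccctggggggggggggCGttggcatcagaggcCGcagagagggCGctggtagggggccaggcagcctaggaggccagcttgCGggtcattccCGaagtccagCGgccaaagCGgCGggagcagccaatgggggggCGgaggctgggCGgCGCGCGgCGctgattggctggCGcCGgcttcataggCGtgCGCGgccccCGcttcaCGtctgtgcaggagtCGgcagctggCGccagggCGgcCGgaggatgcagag
Tbx4: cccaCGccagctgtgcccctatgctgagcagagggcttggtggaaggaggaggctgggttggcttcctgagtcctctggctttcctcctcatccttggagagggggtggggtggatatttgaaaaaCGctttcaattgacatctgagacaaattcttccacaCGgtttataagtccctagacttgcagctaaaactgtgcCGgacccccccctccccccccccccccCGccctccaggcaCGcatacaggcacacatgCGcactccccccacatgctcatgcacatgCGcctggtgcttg
These windows hold 12, 22, 29 and 8 CG dinucleotides, in the order shown. The AP-1 motif TGANTCA, whose reverse complement has the same form so that 1 search covers both strands, was found in 1 of the 27 member windows (3.70%) and in 1486 of all 21262 windows (6.99%). The window that holds it is that of En1 at chr1:120602237-120602536 (plus strand), shown with the motif in capitals.
En1: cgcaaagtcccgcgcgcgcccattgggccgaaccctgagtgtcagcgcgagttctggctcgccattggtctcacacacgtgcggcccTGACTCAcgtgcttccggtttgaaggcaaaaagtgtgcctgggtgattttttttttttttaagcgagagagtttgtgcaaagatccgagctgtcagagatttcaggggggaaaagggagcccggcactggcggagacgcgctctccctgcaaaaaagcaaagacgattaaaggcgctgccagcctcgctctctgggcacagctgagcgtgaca
The motif starts at base 88 of the En1 window. The peak over the En1 window was not called in any of the 3 comparisons of a treatment with its control. A motif match is a description and not a binding site, and peak sequences were not used here.

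Levels are given as CPM, counts per mega reads in peaks after TMM scaling. The SE after a log2 fold change was worked back from edgeR's quasi-likelihood test. It is the size of the change divided by the square root of the F statistic, and so is approximate. Libraries held 6.75 to 25.3 mega reads in peaks, and early control 3 was the shallowest, with correlations to its group down to 0.802, where every other group stayed at 0.907 or above. Member peaks had a median level of 3.10 CPM against 3.27 CPM for all peaks. By place, 83 member peaks lay at a gene end (within 1 kb of either end of a gene), 195 in a gene body and 421 outside genes, so 60.2% lay outside genes against 39.6% of all peaks. The sets are unlike here: of the 206367 peaks, 182923 had a gene within 100 kb, as every member does by rule. The overall shares of all peaks called, given below, also include the peaks beyond 100 kb, and shares without them were not computed. Gene-end member peaks had a median of 4.32 CPM, below the 6.03 CPM of all gene-end peaks. The most accessible member peak was the gene-end peak of Tbx3, a T-box factor of the limb margins, at a mean of 50.9 CPM. Member peaks outside genes reached up to 31.8 CPM. A ranking took 1 peak per gene, its most accessible end or, where none lay at an end, its most accessible peak. After Tbx3 it gave Gata3 (24.0 CPM), Dlx2 (17.2 CPM) and Foxc1 (16.4 CPM). At the other end, the gene-end peak of Tbx4, a T-box factor of the hindlimb, had a mean of 1.62 CPM. Meis1 and Meis2, homeobox genes of the proximal limb, held 56 and 40 peaks, and Alx1 and Dlx1 held 3 each.

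The labelled cell type was checked at gene-end peaks of marker genes. Of 15 fibroblast markers 14 had such a peak, at a median of 11.7 CPM, while the endothelial, epithelial, macrophage, neuronal and muscle lists had one at 5 to 7 of 10 genes each, at medians of 3.07 to 9.52 CPM. The summed level of the fibroblast list ran from 129 to 174 CPM in early controls and from 143 to 158 CPM in early Fra2 libraries. At the late time it ran from 144 to 159 CPM in controls and from 123 to 135 CPM with Fra2 guides, without overlap. The neuronal list summed to 54.0 to 62.9 CPM in early controls, 47.0 to 48.9 CPM in early Fra2 libraries and 47.1 to 49.8 CPM in inhibitor libraries, and to 52.1 to 59.9 against 43.4 to 45.2 CPM at the late time, again without overlap. The endothelial sums were higher with Fra2 guides at the late time (24.9 to 26.1 against 22.6 to 23.6 CPM). The epithelial sums were lower in inhibitor libraries (14.5 to 17.8 CPM) than in early controls (20.4 to 23.4 CPM). These sums hold gene-end peaks only. All gene-end peaks had a median log2 fold change of −0.22 early and −0.23 late with Fra2 guides, and −0.15 with the inhibitor. How far the marker differences go beyond that general shift was not tested, nor was their part in the results on the member genes.

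With Fra2 guides, single sites in or near these genes opened or closed while most member peaks were not called. At the early time 66 of the 699 member peaks rose and 37 fell (edgeR, Benjamini-Hochberg adjusted p under 0.05 over all peaks), which is 9.44% and 5.29%. Over all 206349 tested peaks the shares were 10.1% and 4.91%, 15% in either direction, so the member counts lay near the background in this fit. The median log2 fold change was −0.08 over member peaks and −0.03 over all peaks. At least 1 called peak lay near 40 genes: 32 genes had a peak that rose, 27 had a peak that fell, and 19 had both. The 6 genes with neither were Tbx18, Dlx1, Dlx5, Alx1, Six2 and Pax1. With 699 peaks at 46 genes and 15% of all peaks called, most such genes would hold a called peak at the background rate. The same share over all genes was not computed, so these gene counts are a description only. In 168 member peaks (24.0%) the 3 Fra2 and the 3 control libraries did not overlap, against 27% of all peaks. Without early control 3, 69 member peaks rose and 38 fell, 15.3% in all, against 11.8% and 7.74% of all peaks (19.5% in all), so in that fit the member share lay below the background. In the fits with and without that library 81 member peaks were called in both.

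At the late time, against separate controls, 30 member peaks rose and 17 fell, 4.29% and 2.43%, with 6.45% and 3.54% of all peaks (9.98% in either direction). Of the 66 peaks that rose early, 23 were also called higher late, which is 34.8% of the early and 76.7% of the late list, where the same shares over all peaks were 35.4% and 55.3%. Of the peaks that fell, 5 were shared, 13.5% of the early and 29.4% of the late list (15.8% and 22.0% over all peaks). Over all peaks 3.56% were called higher and 0.777% lower at both times. No member peak was called for a difference between the early and late effects: edgeR's interaction term gave 0 calls with a smallest adjusted p of 0.130, 54 of 699 peaks had an unadjusted p under 0.05, and DESeq2 also gave 0 calls with 42 such peaks. Over all peaks 0.0935% were called for this term by edgeR. A fit without early control 3, which holds 1 library fewer of a group that is not in the late contrast, gave 49 peaks higher and 31 lower late, against 9.29% and 7.08% of all peaks in that fit.

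**Figure D1:**
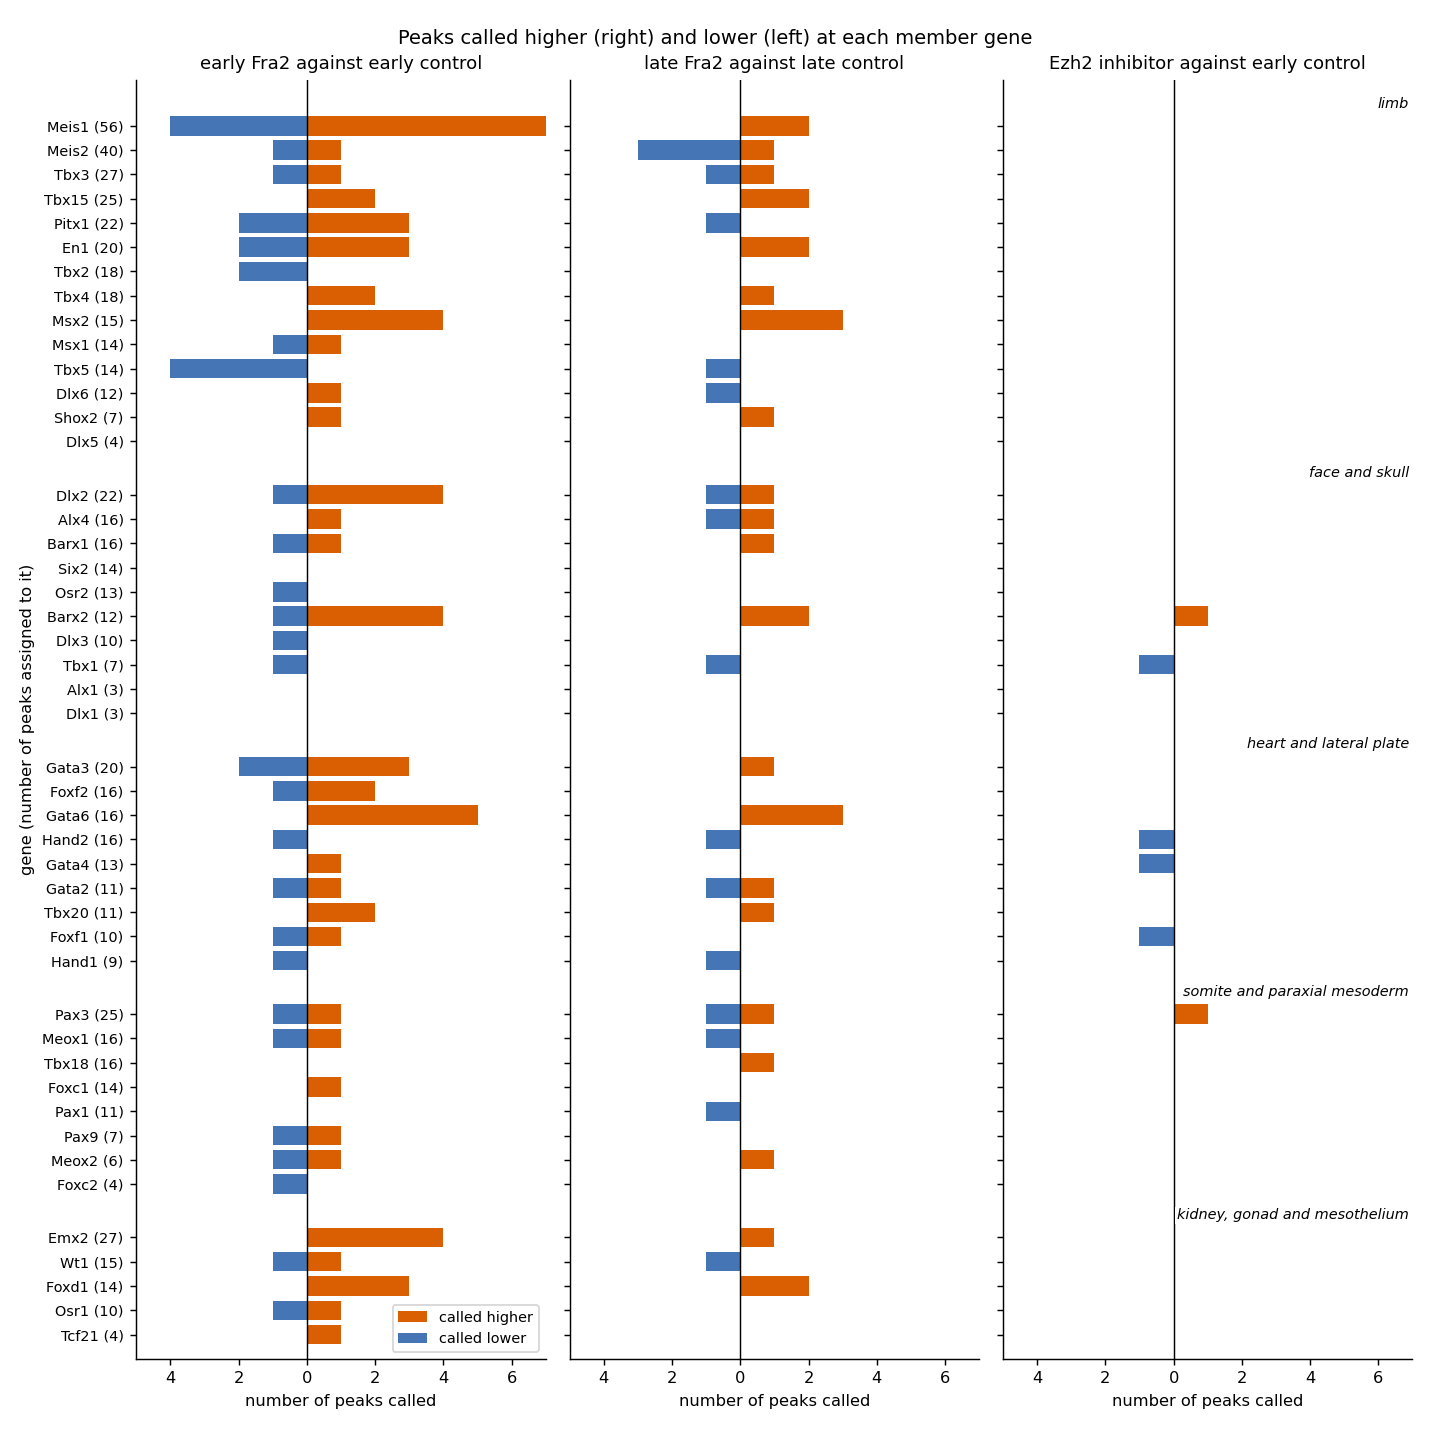
Number of peaks called higher (orange, to the right) and lower (blue, to the left) at each of the 46 genes, with the number of assigned peaks in parentheses and genes grouped by role. The panels show the 3 comparisons of a treatment with its control; Meis1, with 56 peaks, has the most early calls, and the Ezh2 inhibitor panel holds 6 calls.

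The direction of the Fra2 calls went with the place of the peak. At gene ends 1 of 83 member peaks rose early and 8 fell, while 25 rose and 4 fell among the 173 that lay 10 to 50 kb outside the gene, and 23 rose and 4 fell among the 131 at 50 to 100 kb. Over all peaks the shares were 2.18% higher and 7.87% lower at gene ends, 11.7% and 4.39% at 10 to 50 kb, and 13.9% and 3.50% at 50 to 100 kb. In gene bodies 11 of 195 member peaks rose and 12 fell (5.64% and 6.15%), while 10.1% and 4.99% of all gene-body peaks did. At 0 to 10 kb outside the gene 6 of 117 rose and 9 fell (5.13% and 7.69%), against 9.64% and 4.84% of all peaks there. In these last 2 places, rises thus outnumbered falls over all peaks and not over member peaks, a difference that was not tested. Late, 0 of 83 gene-end member peaks rose and 4 fell, with 1.25% and 8.97% of all gene-end peaks. In gene bodies 6 rose and 6 fell late (3.08% each, against 6.37% and 3.13%), and at 0 to 10 kb 0 rose and 2 fell (0% and 1.71%, against 5.75% and 2.89%). Farther out, 8 rose and 2 fell late at 10 to 50 kb (4.62% and 1.16%, against 6.89% and 2.46%), and 16 of 131 rose and 3 fell at 50 to 100 kb (12.2% and 2.29%, against 8.51% and 2.05%). In this fit, the late share of rises was thus below that of all peaks in every place but the farthest. The pattern moved with the fit. When gene ends set the scale, the member share at 50 to 100 kb was also below that of all peaks (19.1% against 20.4%). Without early control 3, the member share at 10 to 50 kb was also above that of all peaks (11.0% against 10.1%).

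The split between rises and falls depended on the scaling. When the TMM factors were taken from gene-end peaks, so that gene ends were centred at no change, 107 member peaks rose and 10 fell early (18.4% and 1.49% of all peaks), and 86 rose and 4 fell late (16.4% and 0.961% of all peaks). Under that scaling the median of all peaks moved from −0.03 to 0.17 early and from −0.01 to 0.22 late, and 2 gene-end member peaks rose and 1 fell early. Late, 1 gene-end member peak rose and 1 fell, where 0 rose and 4 fell in the main fit. A fall at a gene end therefore stands relative to the median peak.

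**Figure D2:**
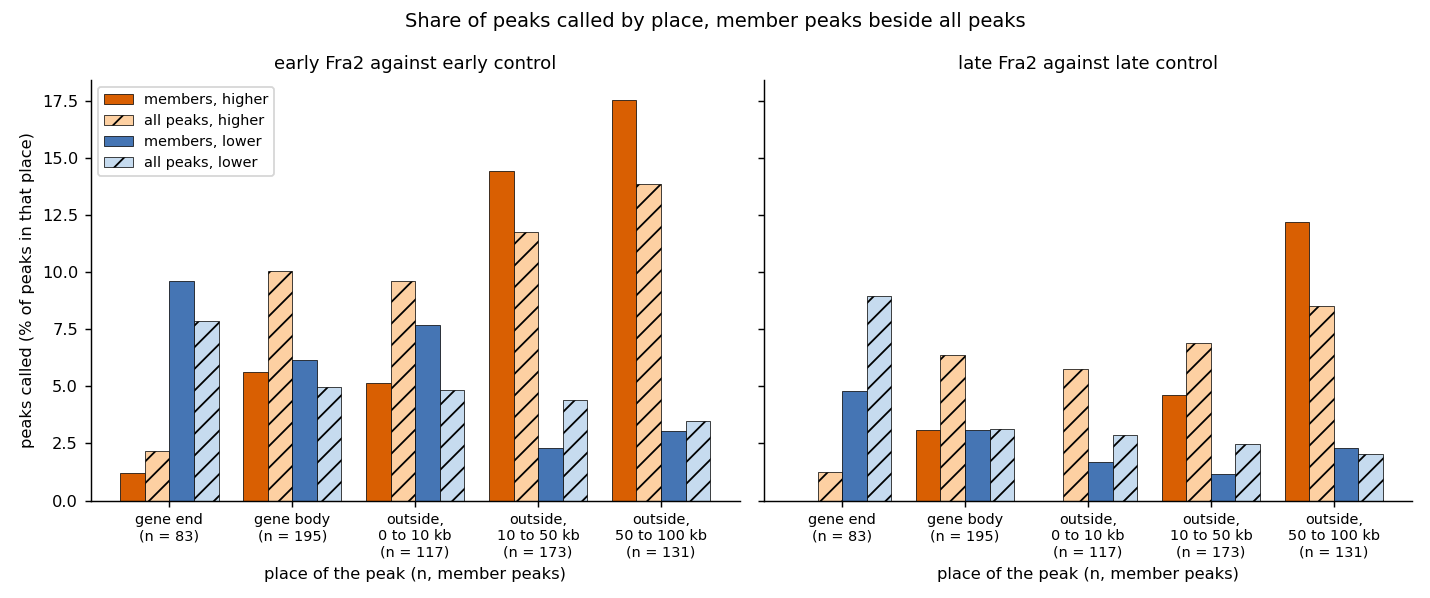
Percent of peaks called higher (orange) and lower (blue) in 5 places, for member peaks (solid) and all peaks (hatched), with TMM scaling over all peaks. Left, early Fra2 against early control; right, late Fra2 against late control. Rises are most frequent at 50 to 100 kb outside genes in both sets, and falls at gene ends.

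Among limb genes, 26 of 292 peaks rose early and 17 fell, 8.90% and 5.82% against 10.1% and 4.91% of all peaks. Late 13 rose and 7 fell, 4.45% and 2.40% against 6.45% and 3.54%. The largest early rise of any member peak lay near Tbx4 (gene ID 21387, chr11:85886367-85916097), the T-box gene of hindlimb identity, at chr11:85929708-85930209, which is 13.9 kb outside the gene. Its level was 2.09, 2.03 and 1.68 CPM in early controls 1 to 3 and 6.98, 8.31 and 6.92 CPM in the early Fra2 libraries. Late controls stood at 2.69, 3.44 and 4.02 CPM, late Fra2 libraries at 6.51, 6.51 and 6.20 CPM and inhibitor libraries at 2.81, 2.68 and 2.41 CPM. Every Fra2 library lay above every other library. The log2 fold change was 1.89 ± 0.21 early (edgeR adjusted p = 1.48e-09) and 0.91 ± 0.18 late (adjusted p = 0.000756), and late controls were above early controls by 0.78 ± 0.23 (adjusted p = 0.0427).

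Tbx5, the forelimb counterpart of Tbx4, had peaks that fell and none that rose: 4 of 14 fell early and 1 fell late. The peak inside the gene at chr5:119835832-119836333 read 3.33, 3.05 and 6.72 CPM in early controls and 1.47, 2.16 and 1.30 CPM with Fra2 guides, without overlap. Its log2 fold change was −1.34 ± 0.29 (edgeR adjusted p = 0.000695), and −0.98 without early control 3, where it was still called. The late groups stood closer together, at 2.61, 2.65 and 2.68 CPM against 2.18, 2.03 and 2.58 CPM, and were not called. A site at chr5:119789808-119790309, 6.46 kb outside Tbx5, fell at both times. It went from 3.60, 3.41 and 2.10 CPM to 1.66, 1.52 and 2.45 CPM early, where early control 3 lies inside the Fra2 range (−0.76 ± 0.27, edgeR adjusted p = 0.0417). Late it went from 4.03, 5.01 and 5.36 CPM to 2.05, 3.04 and 3.32 CPM without overlap (−0.80 ± 0.23, adjusted p = 0.0179).

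Pitx1, the homeobox gene that acts ahead of Tbx4 in the hindlimb, had 3 peaks that rose and 2 that fell early. The site at chr13:55909754-55910255, 73.8 kb outside the gene, read 3.49, 3.99 and 4.48 CPM in early controls and 1.80, 2.24 and 1.80 CPM with Fra2 guides. Late it read 3.29, 2.65 and 3.47 CPM against 1.16, 2.03 and 2.03 CPM, and the groups overlapped at neither time. The log2 fold change was −1.02 ± 0.26 early (edgeR adjusted p = 0.00409) and −0.88 ± 0.25 late (adjusted p = 0.0190). About 10 kb farther out, a site at chr13:55919758-55920259, 83.8 kb from the gene, rose early, from 2.58, 2.03 and 2.10 CPM to 3.66, 4.32 and 4.76 CPM (0.88 ± 0.23, adjusted p = 0.00462). Late controls at this site were already at 4.78, 4.28 and 5.18 CPM, above early controls by 1.06 ± 0.22 (adjusted p = 0.00319), and late Fra2 libraries at 4.58, 3.79 and 5.34 CPM did not differ beyond their spread (−0.06 ± 0.19). A further Pitx1 site, at chr13:55881523-55882024, fell early by −1.23 ± 0.36 (adjusted p = 0.0131), with early control 3 at 4.20 CPM, and was not called without that library (−0.95).

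Meis1 held 7 early rises and 4 falls among its 56 peaks. Inside the gene, the site at chr11:18919066-18919567 rose from 2.68, 2.39 and 4.06 CPM to 8.21, 7.35 and 6.77 CPM early (1.38 ± 0.20, edgeR adjusted p = 9.46e-07) and from 4.78, 4.16 and 3.41 CPM to 6.68, 5.39 and 6.20 CPM late (0.58 ± 0.18, adjusted p = 0.0338). A neighbouring site at chr11:18904837-18905338 rose at both times. It read 1.5, 1.45 and 2.24 CPM against 3.85, 3.76 and 3.82 CPM early (1.21 ± 0.26, adjusted p = 0.000551) and 2.32, 2.11 and 2.01 CPM against 5.69, 4.16 and 4.97 CPM late (1.21 ± 0.23, adjusted p = 0.000251). Groups did not overlap at either of these sites. Of the 40 Meis2 peaks, 3 fell late and 1 rose. The gene-end peak at chr2:116066924-116067425 went from 15.9, 13.8 and 11.8 CPM to 10.9, 10.6 and 7.57 CPM early (−0.53 ± 0.17, adjusted p = 0.0234) and from 13.1, 16.6 and 13.3 CPM to 11.1, 8.59 and 9.64 CPM late (−0.55 ± 0.16, adjusted p = 0.0198). Both of its calls were lost when gene ends set the scale, with −0.33 at each time. The largest late fall of a member peak lay inside Meis2 at chr2:115950280-115950781, from 1.72, 1.81 and 2.07 CPM to 0.514, 0.427 and 1.29 CPM (−1.37 ± 0.39, adjusted p = 0.0177).

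Tbx15, a T-box gene of the limb skeleton and skin, held a site at chr3:99440925-99441426, 86.9 kb outside the gene, that rose at both times. Its level went from 3.27, 3.77 and 2.94 CPM to 7.88, 9.43 and 7.21 CPM early (1.27 ± 0.19, edgeR adjusted p = 1.02e-06) and from 3.29, 2.78 and 3.35 CPM to 5.65, 6.13 and 5.28 CPM late (0.86 ± 0.18, adjusted p = 0.00137). Msx2, a homeobox gene that responds to BMP signals, had 4 early and 3 late rises among 15 peaks and 0 falls. Its largest, at chr13:53496486-53496987, went from 0.751, 0.870 and 2.10 CPM to 2.09, 1.84 and 3.68 CPM early, where early control 3 lies inside the Fra2 range (1.2 ± 0.37, adjusted p = 0.0184), and from 2.76, 1.27 and 1.58 CPM to 3.64, 3.15 and 4.05 CPM late (0.97 ± 0.31, adjusted p = 0.0357). Dlx6, a homeobox gene of the jaw and the distal limb ridge, had an early rise at chr6:6802421-6802922, 60.7 kb away, from 0.483, 1.09 and 0.700 CPM to 2.52, 2.08 and 2.52 CPM (1.67 ± 0.41, adjusted p = 0.00280). Late controls at that Dlx6 site were at 2.47, 1.33 and 1.34 CPM and late Fra2 libraries at 1.80, 1.60 and 1.66 CPM, so the groups overlapped. Shox2, needed for the proximal limb skeleton, rose early at chr3:66942170-66942671 from 0.859, 1.52 and 0.98 CPM to 2.23, 2.80 and 2.95 CPM (1.23 ± 0.34, adjusted p = 0.00992). Several of these sites lie near 1 CPM in controls, where the 3-count floor of 0.117 to 0.420 CPM per library makes single values coarse.

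Tbx3 and Msx1, T-box and homeobox genes of the limb, each held an early fall that was not called when certain single libraries were left out. At the Tbx3 gene-end peak (chr5:119670501-119671002) the levels were 65.4, 60.3 and 41.8 CPM in early controls and 47.5, 52.4 and 39.5 CPM with Fra2 guides, which overlap and were not called. Late they were 53.2, 68.0 and 64.6 CPM against 42.5, 40.9 and 43.3 CPM, without overlap (−0.55 ± 0.16, edgeR adjusted p = 0.0181). This fall also stands relative to the median peak: 4 gene-end member peaks were called lower late in the main fit and 1 with gene-end scaling. The site inside Tbx3 at chr5:119683013-119683514 fell early (−1.09 ± 0.37, adjusted p = 0.0358), a call that was lost in 5 of 22 alternatives, which include the fits without early control 3 (−0.85), early control 2 or early Fra2 1. The largest early fall of all member peaks, 37.9 kb from Msx1 at chr5:37862239-37862740, read 0.590, 1.96 and 5.32 CPM in early controls and 0.427, 0.719 and 0.937 CPM with Fra2 guides. It overlapped between the groups, and its −1.79 ± 0.52 (adjusted p = 0.0135) became −0.86 and was not called without early control 3, the library at 5.32 CPM. It was also not called without early Fra2 1.

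**Figure D3:**
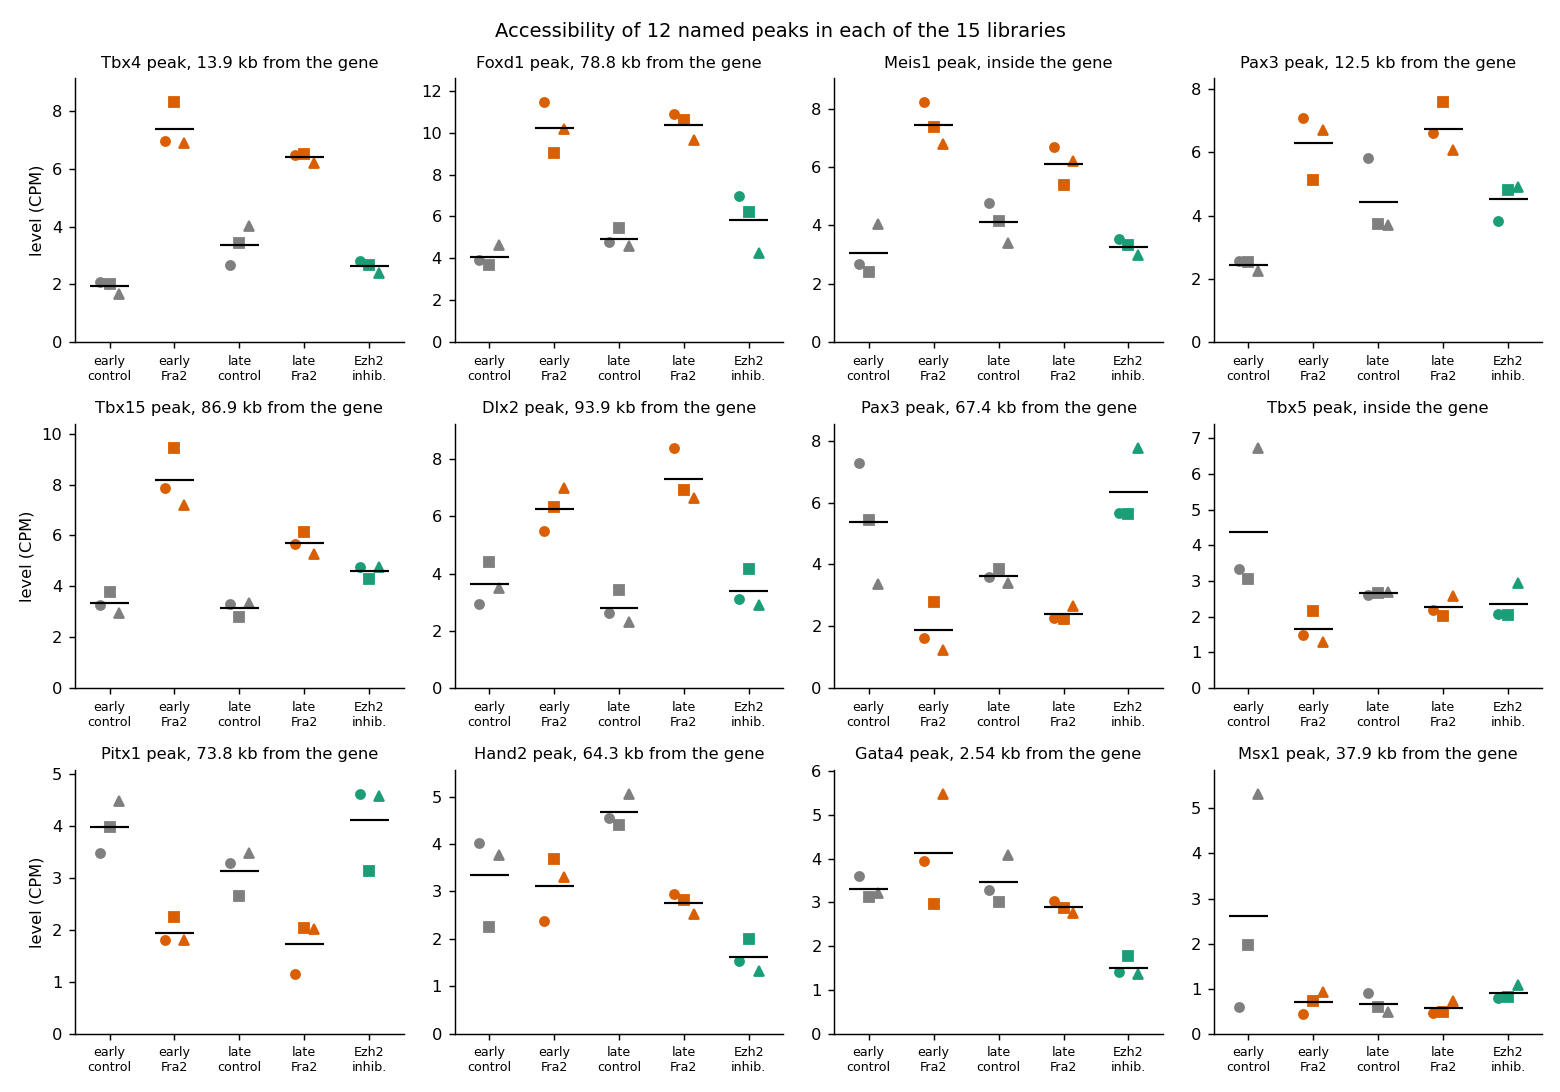
Level in CPM of 12 member peaks in each of the 15 libraries (circle, square and triangle for replicates 1 to 3; horizontal line, group mean; grey, scrambled guides; orange, Fra2 guides; green, Ezh2 inhibitor). At the Tbx4 site the 6 Fra2 libraries, at 6.20 to 8.31 CPM, lie above the other 9, and at the Msx1 site early control 3 stands alone at 5.32 CPM.

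Among genes of the face and skull, 10 of 116 peaks rose early and 6 fell (8.62% and 5.17%, with 10.1% and 4.91% of all peaks), and 5 rose and 3 fell late (4.31% and 2.59%, with 6.45% and 3.54%). Dlx2, a homeobox gene of the jaw, showed a rise far out and a fall close by. The site at chr2:71640387-71640888, 93.9 kb outside the gene, read 2.95, 4.42 and 3.50 CPM in early controls and 5.51, 6.32 and 6.99 CPM with Fra2 guides (0.79 ± 0.20, edgeR adjusted p = 0.00463). Late it had the largest rise of a member peak, from 2.61, 3.44 and 2.31 CPM to 8.39, 6.93 and 6.63 CPM (1.39 ± 0.20, adjusted p = 2.22e-06). The site 3.57 kb from Dlx2 at chr2:71539587-71540088 went the other way at both times. It read 3.27, 1.89 and 3.22 CPM against 0.902, 1.44 and 2.02 CPM early, where the groups overlap (−0.97 ± 0.34, adjusted p = 0.0434), and 3.29, 2.41 and 2.80 CPM against 0.728, 1.33 and 1.60 CPM late, without overlap (−1.24 ± 0.33, adjusted p = 0.0106). The early call was lost in 10 of 22 alternatives, 8 of them with 1 library left out, and read −0.89 without early control 3. Dlx2 also held the 1 gene-end member peak that rose early, at chr2:71542651-71543152, from 15.1, 13.8 and 9.66 CPM to 18.3, 18.6 and 18.3 CPM (0.48 ± 0.16, adjusted p = 0.0296). That call was lost in 6 of 22 alternatives, among them the fits without early control 3 (0.35), early control 2 or any 1 of the early Fra2 libraries. The late levels of that peak, 20.3, 21.4 and 18.9 CPM against 21.3, 19.1 and 19.1 CPM, did not differ beyond their spread.

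Barx1, a homeobox gene of the teeth and stomach mesenchyme, rose at chr13:48711288-48711789, 45.0 kb away, from 2.79, 2.10 and 2.66 CPM to 5.51, 7.19 and 5.33 CPM early (1.24 ± 0.22, edgeR adjusted p = 3.37e-05) and from 2.39, 2.84 and 2.13 CPM to 3.98, 5.39 and 4.73 CPM late (0.93 ± 0.21, adjusted p = 0.00280). Its site inside the gene at chr13:48664839-48665340 fell early with early control 3 at 6.72 CPM (−0.95 ± 0.30, adjusted p = 0.0219), and at −0.51 without that library it was not called, nor was it without early Fra2 1 or 2. Barx2, a related gene of muscle and cartilage, had 4 early rises and 1 fall among 12 peaks. Its largest early rise, at chr9:31923348-31923849, went from 0.537, 1.45 and 1.82 CPM to 2.42, 3.20 and 3.17 CPM (1.32 ± 0.36, adjusted p = 0.00748). Early falls at Dlx3, a homeobox gene of teeth and placenta, and at Osr2, a zinc finger gene of the palate, lay at or close to the gene. The Dlx3 gene-end peak at chr11:95119954-95120455 went from 4.67, 5.95 and 6.72 CPM to 2.94, 2.80 and 3.10 CPM (−0.93 ± 0.21, adjusted p = 0.00109). A site 2.50 kb from Osr2, at chr15:35293347-35293848, went from 3.92, 5.22 and 3.64 CPM to 2.18, 1.84 and 3.03 CPM (−0.88 ± 0.23, adjusted p = 0.00646). The Dlx3 and Osr2 late groups overlapped and were not called.

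Among genes of the heart and lateral plate, 15 of 122 peaks rose early and 7 fell, 12.3% and 5.74% beside 10.1% and 4.91% of all peaks. Late 6 rose and 3 fell, 4.92% and 2.46% beside 6.45% and 3.54%. Gata6, a GATA gene of heart and endoderm, had 5 rises and 0 falls among 16 peaks early and 3 rises and 0 falls late. Tbx20, a T-box gene of the heart, had 2 early rises and 1 late rise among 11 peaks. Its site at chr9:24840001-24840502, 65.9 kb away, read 3.14, 2.11 and 1.64 CPM in late controls and 4.97, 5.39 and 3.87 CPM in late Fra2 libraries (1.07 ± 0.24, edgeR adjusted p = 0.00185). The site 76.6 kb away at chr9:24850640-24851141 rose early from 1.13, 1.38 and 1.82 CPM to 2.75, 3.52 and 3.75 CPM (1.26 ± 0.34, adjusted p = 0.00740). Gata2, a GATA gene of blood progenitors and mesenchyme, rose at both times at chr6:88174580-88175081, 19.1 kb away. The levels were 3.22, 4.71 and 5.32 CPM against 8.07, 5.76 and 6.27 CPM early (0.68 ± 0.19, adjusted p = 0.0106) and 6.42, 5.43 and 4.20 CPM against 10.5, 8.48 and 8.84 CPM late (0.81 ± 0.17, adjusted p = 0.00136).

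Falls at Foxf2, Gata3 and Gata2 lay inside the genes. Foxf2, a forkhead gene of gut and face mesenchyme, fell early inside the gene at chr13:31629493-31629994, from 3.70, 4.50 and 6.30 CPM to 2.42, 2.16 and 2.45 CPM (−0.98 ± 0.25, edgeR adjusted p = 0.00410). Late controls there were already at 2.61, 2.71 and 2.01 CPM, lower than early controls (−0.93 ± 0.25, adjusted p = 0.0230), and the late groups overlapped. Over the promoter windows printed above, the Gata3 peak (chr2:9878226-9878727) fell early from 7.03, 6.75 and 8.12 CPM to 5.60, 4.72 and 4.90 CPM (−0.49 ± 0.17, adjusted p = 0.0413). The Gata2 peak (chr6:88198391-88198892) fell late from 12.9, 11.6 and 12.4 CPM to 8.18, 9.81 and 9.15 CPM (−0.45 ± 0.15, adjusted p = 0.0432), and neither pair of groups overlapped.

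Among genes of the somites and paraxial mesoderm, 5 of 99 peaks rose early and 5 fell, 5.05% each, where 10.1% and 4.91% of all peaks did. Late 3 rose and 3 fell, 3.03% each, where 6.45% and 3.54% of all peaks did. Pax3, the paired-box gene of the dermomyotome and neural crest, held sites that moved in opposite directions. At chr1:78088556-78089057, 12.5 kb outside the gene, the level was 2.58, 2.54 and 2.24 CPM in early controls and 7.07, 5.12 and 6.70 CPM in early Fra2 libraries (1.35 ± 0.21, edgeR adjusted p = 3.84e-06). In late controls it was 5.83, 3.74 and 3.72 CPM and in late Fra2 libraries 6.59, 7.57 and 6.08 CPM (0.63 ± 0.18, adjusted p = 0.0198). At chr1:78033629-78034130, 67.4 kb outside the gene, early controls read 7.30, 5.44 and 3.36 CPM and early Fra2 libraries 1.61, 2.80 and 1.23 CPM (−1.63 ± 0.24, adjusted p = 1.75e-06), without overlap. The late change there, from 3.59, 3.86 and 3.41 CPM to 2.27, 2.24 and 2.64 CPM, did not pass the test (−0.61 ± 0.24, adjusted p = 0.0831). Inside Pax3, a peak at chr1:78129193-78129694 fell late from 6.13, 3.50 and 5.66 CPM to 3.72, 3.04 and 3.19 CPM, with overlap (−0.60 ± 0.20, adjusted p = 0.0408). That peak had the smallest adjusted interaction p of the member peaks (0.130).

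Meox1 and Meox2, homeobox genes of the somites, and Pax1, a paired-box gene of the sclerotome, gave falls at 1 time each among the named peaks. Inside Meox1, chr11:101881505-101882006 went from 7.40, 9.47 and 8.41 CPM to 4.45, 4.91 and 4.73 CPM late (−0.85 ± 0.17, edgeR adjusted p = 0.000514), a call that remained with gene-end scaling at −0.62. The early groups at that Meox1 site overlapped. The Meox2 gene-end peak over the printed promoter (chr12:37108403-37108904) read 2.63, 5.15 and 5.60 CPM in early controls and 3.37, 2.56 and 1.66 CPM with Fra2 guides, with overlap (−0.72 ± 0.26, adjusted p = 0.0475). That call was lost in 16 of 22 alternatives, 13 of them with 1 library left out and the others with DESeq2, gene-end scaling and the compared groups alone, and the value was −0.55 without early control 3. The Pax1 site 25.4 kb away at chr2:147336234-147336735 fell late from 2.61, 2.47 and 2.56 CPM to 1.54, 0.533 and 1.47 CPM (−1.09 ± 0.33, adjusted p = 0.0269).

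Among genes of the kidney, gonad and mesothelium, 10 of 70 peaks rose early and 2 fell (14.3% and 2.86%, all peaks 10.1% and 4.91%), and 3 rose and 1 fell late (4.29% and 1.43%, all peaks 6.45% and 3.54%). Foxd1, the forkhead gene of the kidney stroma, had the largest change, at chr13:98435205-98435706, 78.8 kb outside the gene. The level was 3.92, 3.70 and 4.62 CPM in early controls and 11.4, 9.03 and 10.2 CPM with Fra2 guides (1.36 ± 0.18, edgeR adjusted p = 1.48e-07). Late controls were at 4.78, 5.43 and 4.57 CPM and late Fra2 libraries at 10.9, 10.6 and 9.64 CPM (1.07 ± 0.17, adjusted p = 1.67e-05), so the 6 Fra2 libraries stood above all others at this site. Emx2, a homeobox gene of the urogenital tract, had 4 early rises and 0 falls among 27 peaks, the largest 7.66 kb away at chr19:59472766-59473267, from 0.913, 1.23 and 2.10 CPM to 3.28, 2.64 and 2.88 CPM (1.19 ± 0.32, adjusted p = 0.00636). Tcf21, a bHLH gene of kidney and epicardial mesenchyme, rose early 1.32 kb from the gene at chr10:22815692-22816193, from 2.74, 2.68 and 2.24 CPM to 5.55, 3.20 and 4.47 CPM (0.78 ± 0.23, adjusted p = 0.0160). Wt1, a zinc finger gene of the mesothelium, fell early inside the gene at chr2:105160909-105161410, from 2.36, 2.25 and 3.78 CPM to 1.33, 1.12 and 1.01 CPM (−1.2 ± 0.34, adjusted p = 0.0118). Its gene-end peak at chr2:105126245-105126746 fell late from 3.88, 5.43 and 4.99 CPM to 2.48, 3.41 and 2.89 CPM (−0.72 ± 0.21, adjusted p = 0.0172). With gene-end scaling 1 gene-end member peak was called lower late, where 4 were in the main fit.

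Of the named peaks, 7 of 14 early rises (near Tbx4, Meis1, Tbx15, Dlx6, Barx1, Pax3 and Foxd1) and 5 of 16 early falls (near Tbx5, Dlx3, Foxf2, Pax3 and Wt1) were called in all 22 alternatives. Late, 8 of 13 rises (near Tbx4, Meis1, Tbx15, Dlx2, Barx1, Gata2, Tbx20 and Foxd1) and 1 of 13 falls (inside Meox1) were. Gene-end scaling by construction moved the log2 values of both comparisons up: all 14 peaks named for an early rise and all 13 for a late rise were still called when gene ends set the scale, whereas 8 of 16 early falls and 4 of 13 late falls were. With DESeq2 14 of 14 early rises and 15 of 16 early falls were still called, and late 12 of 13 in each direction. Without early control 3, 13 of the 14 early rises and 10 of the 16 early falls were still called. A fit restricted to the 2 groups compared, in which early control 3 weighs more on the spread, called 45 member peaks early (34 higher, 11 lower, 6.44% in all) against 7.27% of all peaks.

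Counts summed over all peaks of a gene gave 1 value per gene and moved less. Early, 5 of 46 genes rose and 8 fell, and late 6 rose and 8 fell; over all 18289 genes 9.62% rose and 14.3% fell early (23.9% in all), and 6.64% and 17.4% late (24.0% in all). In a fit of the early groups alone 0 of the 46 genes rose and 1 fell, where 3.97% of all genes were called, so 1 of these 13 early calls, the fall of Tbx5, remained. Tbx4 rose from 57.1, 64.5 and 62.7 CPM to 76.3, 76.1 and 69.0 CPM early (0.27 ± 0.07, edgeR adjusted p = 0.00591) and from 62.7, 60.9 and 60.9 CPM to 72.9, 77.7 and 73.1 CPM late (0.28 ± 0.06, adjusted p = 0.00399). Tbx5 fell from 49.1, 48.5 and 61.0 CPM to 37.1, 39.3 and 38.4 CPM early (−0.45 ± 0.08, adjusted p = 0.000943) and from 46.0, 44.9 and 52.4 CPM to 41.4, 39.9 and 39.3 CPM late (−0.25 ± 0.08, adjusted p = 0.0289). Summed counts thus stood higher at Tbx4 and lower at Tbx5 with Fra2 guides, without overlap between groups in either. Pitx1, the hindlimb gene ahead of Tbx4, was not called on summed counts at either time, so these are values of single genes. Barx2, Gata6, Tbx20 and Msx2 also rose at both times, by 0.27 to 0.33 early and 0.18 to 0.30 late. The late calls of Barx2 and Msx2 were each lost in 13 of 22 alternatives, 11 and 12 of them with 1 library left out, and early Msx2 was 0.16 without early control 3. Hand2, Tbx2, Tbx3 and Foxc2 fell at both times, by −0.19 to −0.37 early and −0.25 to −0.33 late, with the early call of Hand2 lost in 12 of 22 alternatives. At 1 time only, Tbx1, Gata2 and Pax1 fell early, Meox2 rose late, and Dlx1, Meis2 and Msx1 fell late; the Gata2 call was lost in 17 and the Dlx1 call in 12 of 22 alternatives. Interaction tests gave 0 genes (2 at an unadjusted p under 0.05 by edgeR, and 0 called and 4 unadjusted by DESeq2), where 0.0109% of all genes were called.

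These summed directions depended on the scale. With gene-end scaling 18 genes rose and 1 fell early, and 22 rose and 0 fell late, while 34.0% of all genes rose and 1.75% fell early and 35.4% rose and 2.23% fell late. The falls of Hand2, Tbx2, Tbx3 and Foxc2 stand relative to the median peak. Tbx5 was the gene still called lower early under that scaling (−0.26), and its late fall was lost (−0.03), as it was without late control 3 or any 1 of the late Fra2 libraries. Tbx1 fell by −0.62 ± 0.18 early (edgeR adjusted p = 0.0162) with early control 3 at 36.5 CPM against 20.4 and 18.1 CPM in the other controls, and at −0.31 without that library it was not called, nor was it without early Fra2 1.

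**Figure D4:**
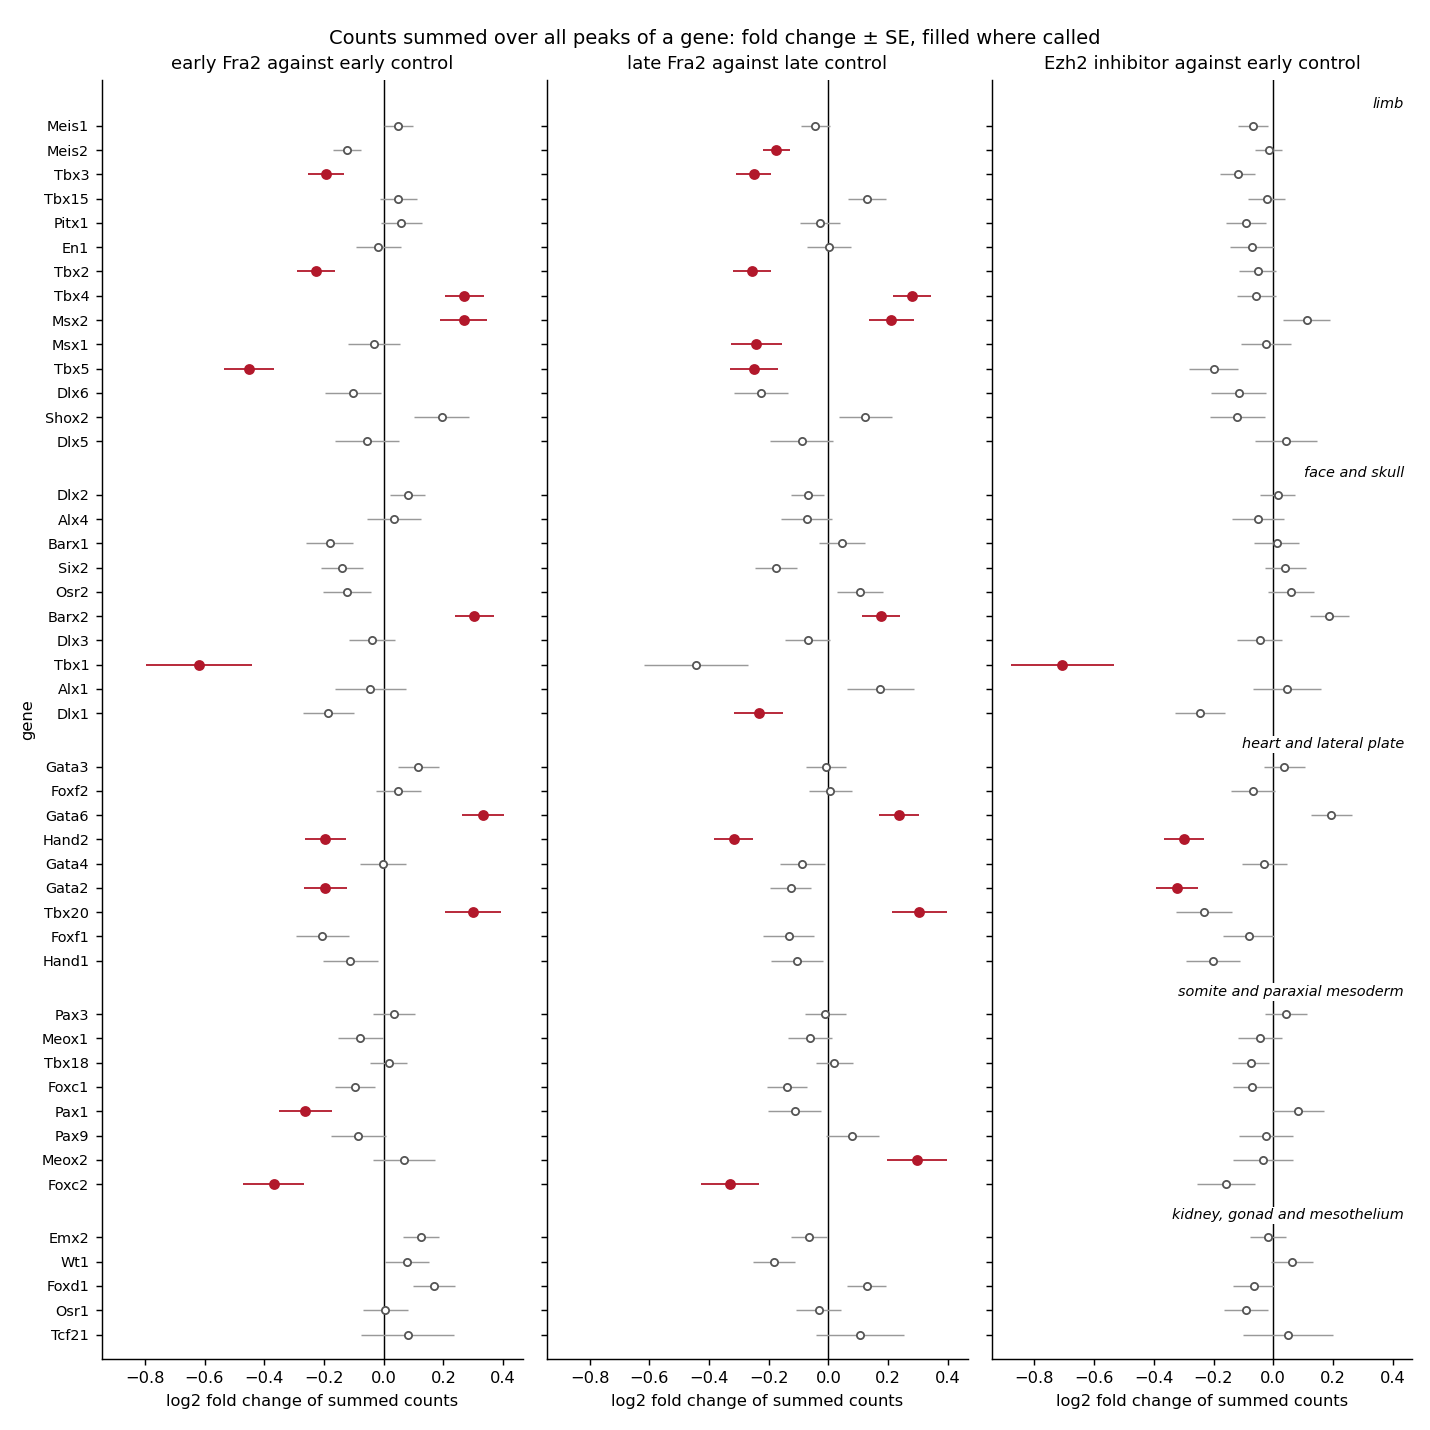
Log2 fold change ± SE of counts summed over all peaks assigned to each of the 46 genes, for the 3 comparisons of a treatment with its control; filled red points were called by edgeR at an adjusted p under 0.05. Tbx4, Msx2, Barx2, Gata6 and Tbx20 lie to the right and Tbx5, Hand2, Tbx2, Tbx3 and Foxc2 to the left in both Fra2 panels.

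With the Ezh2 inhibitor, member peaks were called about as rarely as all peaks. Against the early controls, 2 of 699 member peaks rose and 4 fell, 0.286% and 0.572%, while 0.552% and 0.341% of all peaks did. In either direction that is 0.858% of member peaks and 0.893% of all peaks. At an unadjusted p under 0.05 there were 101 member peaks (14.4%, against 14.7% of all peaks), and DESeq2 called 4. The median log2 fold change was −0.06 over member peaks and −0.00 over all peaks. In 124 member peaks (17.7%) the groups did not overlap, against 18.0% of all peaks. These early controls are the same libraries that the early Fra2 comparison uses.

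The peaks that rose lay near Barx2 and Pax3. Inside Barx2, chr9:31889834-31890335 read 1.13, 1.23 and 0.840 CPM in early controls and 2.29, 3.18 and 2.68 CPM with the inhibitor (1.29 ± 0.33, edgeR adjusted p = 0.0370). The same site rose late with Fra2 guides, from 2.61, 1.75 and 0.853 CPM to 3.47, 3.41 and 3.07 CPM (0.96 ± 0.30, adjusted p = 0.0288). The Pax3 site 12.5 kb outside the gene stood at 3.82, 4.81 and 4.89 CPM with the inhibitor (0.86 ± 0.21, adjusted p = 0.0324) and was the 1 member peak called in the same direction in all 3 comparisons. No member peak was called in opposite directions between them. The inhibitor comparison held 6 member calls and shares its controls with the early Fra2 comparison, so few opposite calls with it were possible. The shares of all peaks called in the same or in opposite directions were not computed.

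The peaks that fell lay near 4 genes of the heart, gut and pharynx. Gata4, a GATA gene of the heart, went at chr14:63274000-63274501, 2.54 kb away, from 3.60, 3.12 and 3.22 CPM to 1.41, 1.77 and 1.36 CPM (−1.14 ± 0.25, edgeR adjusted p = 0.0154). Hand2, a bHLH gene of the heart and the posterior limb, went at chr8:57388564-57389065, 64.3 kb away, from 4.03, 2.25 and 3.78 CPM to 1.54, 2.0 and 1.32 CPM (−1.05 ± 0.25, adjusted p = 0.0282), and the same site fell late with Fra2 guides (−0.75 ± 0.23, adjusted p = 0.0252). At the Foxf1 gene end (chr8:121083532-121084033), a forkhead gene of lung and gut mesenchyme, levels went from 10.4, 8.12 and 8.12 CPM to 5.45, 6.13 and 5.05 CPM (−0.71 ± 0.17, adjusted p = 0.0291). Tbx1, a T-box gene of the pharyngeal arches, went at chr16:18577639-18578140 from 3.17, 2.39 and 4.06 CPM to 0.967, 1.5 and 1.13 CPM (−1.39 ± 0.36, adjusted p = 0.0430). None of these 6 sites overlapped between the groups. The Foxf1 and Tbx1 sites also fell early with Fra2 guides (−0.57 ± 0.18, edgeR adjusted p = 0.0200, and −1.18 ± 0.37, adjusted p = 0.0244). The Tbx1 groups overlapped there, and the early controls are the same libraries as in the inhibitor comparison. Both early Fra2 calls were lost when gene ends set the scale (−0.37 at Foxf1, −0.99 at Tbx1). They were also lost in a fit of the compared groups alone. The late Fra2 call at the Hand2 site was lost with gene-end scaling too (−0.53).

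In the summed counts 0 of 46 genes rose with the inhibitor and 3 fell, against 0.558% and 1.53% of all genes (2.08% in all). Hand2 went from 71.4, 67.4 and 68.6 CPM to 56.1, 57.5 and 55.1 CPM (−0.30 ± 0.07, edgeR adjusted p = 0.0213). Gata2 went from 61.1, 65.0 and 67.3 CPM to 48.2, 51.9 and 54.0 CPM (−0.32 ± 0.07, adjusted p = 0.0211). Tbx1 went from 20.4, 18.1 and 36.5 CPM to 14, 15.4 and 14.6 CPM (−0.71 ± 0.17, adjusted p = 0.0351; −0.40 without early control 3). All 3 gene calls were lost when any 1 of the inhibitor libraries was left out. The number of inhibitor calls moved with single libraries and with the fit: 17 member peaks (7 higher, 10 lower, 2.43% in all) were called without early control 3 against 3.66% of all peaks (1.42% higher, 2.24% lower), 0 in a fit of the inhibitor and early control groups alone, 0 without inhibitor library 1 or 3, and 22 (18 higher, 4 lower) with gene-end scaling against 3.58% and 0.260% of all peaks.

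Set directly against the early Fra2 libraries, the inhibitor libraries had 30 member peaks higher and 63 lower, against 5.20% and 9.02% of all peaks (14.2% in either direction). The Pax9 site at chr12:56672247-56672748, 19.2 kb from this sclerotome gene, read 0.352, 0.590 and 0.350 CPM with the inhibitor and 2.42, 2.56 and 2.31 CPM with Fra2 guides (−2.49 ± 0.42, edgeR adjusted p = 1.65e-05). Early controls lay between, at 0.913, 0.943 and 1.68 CPM. The Pax3 site 67.4 kb outside its gene went the other way, at 5.67, 5.63 and 7.77 CPM with the inhibitor (1.80 ± 0.23, adjusted p = 6.34e-08), a level that did not differ from early controls beyond the spread (0.17 ± 0.20). Further sites higher with the inhibitor lay near Barx1 (chr13:48694021-48694522, 1.31 ± 0.26), Meis1 (chr11:18821310-18821811, 1.19 ± 0.32) and Pitx1 (the site 73.8 kb away, 1.09 ± 0.24). Lower sites lay near Tbx4 (−1.48 ± 0.18), Gata4 (−1.45 ± 0.24) and Gata3 (chr2:9765206-9765707, −1.42 ± 0.28), the Tbx4 and Gata4 sites being those given above. On summed counts Tbx5 and Pax1 were higher and Tbx4, Tbx20, Foxd1 and Shox2 lower with the inhibitor than with Fra2 guides, 2 and 4 of 46 genes, where 4.82% and 6.05% of all genes were called (10.9% in all).

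Between the controls, 14 member peaks were higher late and 5 lower, against 2.04% and 1.24% of all peaks (3.28% in either direction). Beside the Pitx1, Pax3 and Tbx4 sites given above, Meis1 rose at chr11:18864614-18865115 from 2.52, 1.02 and 3.50 CPM to 5.45, 3.50 and 4.51 CPM (1.01 ± 0.26, edgeR adjusted p = 0.0195). Dlx2 rose at chr2:71589056-71589557 from 12.8, 8.92 and 6.72 CPM to 16.7, 15.5 and 19.5 CPM (0.81 ± 0.17, adjusted p = 0.00299). Tbx15 fell inside the gene at chr3:99331142-99331643 from 2.74, 3.41 and 2.52 CPM to 1.34, 1.45 and 1.16 CPM (−1.14 ± 0.32, adjusted p = 0.0331). At the Msx1 site with early control 3 at 5.32 CPM, the fall of −1.83 ± 0.52 (adjusted p = 0.0355) was not called without that library (−0.90), without early control 2 or without any 1 of the late controls. On summed counts Dlx2 and Wt1 were higher and Tbx15 lower in late controls, where 1.57% and 1.06% of all genes were called (2.64% in all).

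The genes of limb and mesoderm signalling, a list of 45 ligands, receptors and pathway genes (FGF, WNT, BMP, hedgehog, retinoic acid, TGF-beta and Notch), had 870 peaks. Of these 83 rose and 42 fell early, 9.54% and 4.83% with 10.1% and 4.91% of all peaks, and 51 rose and 42 fell late, 5.86% and 4.83% with 6.45% and 3.54% of all peaks. The highest called change at both times lay inside Rarb, a retinoic acid receptor gene, at chr14:16720588-16721089, with group means of 1.84 CPM in early controls, 6.48 CPM with early Fra2 guides, 1.32 CPM in late controls and 4.11 CPM with late Fra2 guides (1.92 ± 0.25, edgeR adjusted p = 7.01e-08, and 1.62 ± 0.25, adjusted p = 1.69e-05). The lowest were inside Bmp5, a BMP ligand gene, early (−1.49 ± 0.36, adjusted p = 0.00265) and inside Gli2, a hedgehog effector gene, late (−1.58 ± 0.21, adjusted p = 5.44e-07). With the inhibitor 4 of the 870 peaks rose and 5 fell (0.460% and 0.575%, where 0.552% and 0.341% of all peaks did), with the extremes at another peak inside Rarb (1.07 ± 0.23) and at a peak inside Fgf4, an FGF ligand gene (−1.46 ± 0.36). The fibroblast marker list, for comparison, had 39 rises and 13 falls among 351 peaks early (11.1% and 3.70%), 16 and 11 late (4.56% and 3.13%), and 1 and 5 with the inhibitor (0.285% and 1.42%).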

How the data were processed

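Chromatin accessibility was analysed in 15 mouse fibroblast libraries in 5 groups of 3. The authors deposited raw read counts per consensus peak, and peaks on mm10 were called with MACS2, per the submitters' processing notes; the sources used here give neither the aligner nor the counting tool. All 206367 peaks were fitted together with edgeR 4.0.16 (R 4.3.3; TMM scaling, quasi-likelihood test, 18 peaks removed for low counts) over all 15 libraries, and Benjamini-Hochberg adjusted p under 0.05 over all tested peaks was called. Counts summed over the peaks of a gene were fitted in the same way over 18289 genes. The model was also run on simulated counts drawn with a common spread. These held no outlying library and no general shift, so that run does not bear on the limits set by early control 3 or by the scaling. Peaks were assigned by RefSeq gene intervals.

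The members and lists were chosen with earlier results of these data known. Peaks were named by rule: in each treatment comparison the 12 highest and 12 lowest called at 1 CPM or more, 1 per gene and direction; each gene's most accessible end; the 4 highest and 4 lowest in other contrasts; and every gene called on summed counts. The peaks over the Gata2 and Gata3 promoter windows fall outside this rule and were chosen after their values were seen. Alternatives were DESeq2 1.42.0, RLE factors, TMM factors from gene-end peaks, cyclic loess offsets (limma 3.58.1), no filter, a replicate block, a fit of the compared groups, 15 fits leaving out 1 library, a 20 kb limit and gene-end peaks only.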

Additional observations from a re-analysis of the deposited data

How the results depend on the processing

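Counts are of member peaks, then of genes on summed counts, called in either direction. In fits of the compared groups only, early Fra2 gave 45 peaks and 1 gene, late Fra2 80 peaks, the inhibitor 0 and 0, late against early control 1 and 0, and the inhibitor against early Fra2 13 genes. With TMM factors from gene-end peaks, late Fra2 gave 90 peaks and 22 genes, the inhibitor 22 and 7, late against early control 5 genes and the inhibitor against early Fra2 10 genes; the summed values of Hand2 early (0.000768) and Meis2 late (0.0476) changed sign. Cyclic loess gave 20 peaks and 5 genes for the inhibitor, and RLE factors 1 gene for late against early control. Within 20 kb there were 57 peaks early, 21 late, 11 (and 0 genes) for late against early control, and 41 (and 2 genes) for the inhibitor against early Fra2. Gene-end peaks alone, which are fewer, gave 9 early, 4 late, and 1 in each of the other 3 comparisons with a call. Beyond the smaller sets, the cause was not tested. Leaving out 1 library gave 62 to 107 peaks and 7 to 14 genes early, 17 to 80 and 4 to 18 late, 0 to 17 and 0 to 4 for the inhibitor, 5 to 23 and 0 to 3 for late against early control, 0 to 2 and 0 to 0 for the interaction, and 51 to 124 and 2 to 12 for the inhibitor against early Fra2. The low ends came without early Fra2 1 (62), late control 3 (17 and 4), inhibitor 1 or 3 (0), late control 2 (5) and inhibitor 3 (51), and the high ends of the early, late and inhibitor peak counts without early control 3. In the early Fra2 comparison, deviations of same-numbered libraries correlated at 0.274, −0.01 and 0.243, and those of differently numbered libraries at −0.283 to 0.127. In the late comparison, same-numbered pairs stood at −0.0916, −0.0268 and −0.00893, and the others at −0.0351 to 0.0573. Whether libraries of the same number share more than that number was not tested. The replicate block gave 105 peaks and 12 genes early, 49 and 13 late, and 9 and 3 for the inhibitor. It gave 20 and 2 for late against early control, and 0 and 0 for the interaction. For the inhibitor against early Fra2 it gave 89 and 6. Depth limits sites near 1 CPM, above all in early control 3.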
